A study of Saccharomyces cerevisiae with 4 samples.

Results

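The genes described here encode proteins of the mitochondrial ribosome of budding yeast and proteins that act with it in mitochondrial translation. They were selected by symbol alone: probes with 1 platform symbol of the MRPL, MRPS, MRP, RSM, PET, CBP, CBS, MSS, IMG, MEF or MRF series, or the symbol YMR31, IFM1 or TUF1. The pattern matched 80 probes of 74 genes, and 78 probes of 72 genes had a value on all 4 arrays. MRPL3 and MRPS9 had none. The 72 genes stand among 3099 named genes and 5946 measured features in all. By role, 24 belong to the large subunit, 22 to the small subunit, 7 to the activators that act on single mitochondrial messenger RNAs, 5 to the translation factors, 3 to RNA or tRNA metabolism and 5 to the assembly of respiratory complexes. The other 6 are remaining matches of the pattern, with MRP35, a ribosomal protein gene by its locus, counted in neither subunit. Among these, PET9 (the ADP/ATP carrier) and PET8 (the S-adenosylmethionine carrier) are transporters of the inner membrane and not part of the translation machinery. The label therefore holds for most, but not all, of the 72 genes. MRP10, MRPL10, PET18 and PET309 were carried only by probes with several symbols and were left out by the rule.

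On 4 two-colour arrays carrying the open reading frames of yeast, each hybridisation paired RNA of 2 derivatives of strain W303-1A. The first made CadA, the cadmium-transporting P-type ATPase of Listeria monocytogenes, and the second its D398A mutant. Both were grown at 30 °C in SD minimal medium with all amino acids and adenine to an OD600 of 0.4 and then received 1 µM cadmium for 1 h, so cells without cadmium form no group here. The dyes were swapped: CadA RNA was labelled with Cy5 on array 1 and array 3 and with Cy3 on the other two, where D398A RNA had Cy5. The labels name neither the promoter of the transgene nor the number of clones, and do not say that the arrays came from separate cultures. P-values therefore measure the spread between arrays, which may be technical, and 4 arrays limit the precision.

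All values are log ratios of the 2 strains, read as log2, with n = 4 arrays unless another number is given. No source used here states which dye is the numerator or whether the table already runs 1 way. Values were therefore turned by the dye labels, keeping the sign on arrays 2 and 4 and changing it on arrays 1 and 3. Positive turned values lie on the side of KAR2, the main chaperone of the endoplasmic reticulum, which averaged 1.04 ± 0.84 (SD). No strain is named for either side. A second reading, further on, keeps the deposited signs: if the table already ran in 1 strain direction, that reading holds the strain difference and the turned values hold dye effects. If it did not, the turned values hold the strain difference and the deposited means hold dye effects. Because arrays 2 and 4 keep their sign in both readings, their values are shared by the 2 readings. On array 1 and array 2 the SD over all probes was 0.87 and 0.95, and on arrays 3 and 4 it was 0.46 and 0.47.

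The mitochondrial ribosome translates the few messenger RNAs of the mitochondrial genome, which encode core subunits of cytochrome c oxidase, the bc1 complex and ATP synthase. Nearly all of its proteins are encoded in the nucleus, made in the cytosol and imported. In yeast, most of these mitochondrial messages also need their own nuclear-encoded activator, such as Pet111 for COX2, Pet54, Pet122 and Pet494 for COX3, and Cbs2 for COB. No sequence is printed for these genes, since no sequence was among the sources used here.

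In turned signs the genes lay slightly on the side opposite to KAR2, without a single one passing the test. Of the 72 genes, 49 had a negative mean over the arrays (68.1%), against 52.6% of all 5946 features. The median of their means was -0.13, and that of all features was -0.01. Limma called 0 of the 72 genes at an adjusted p of 0.05, where it called 0 of 5946 features (0% of those tested). The smallest adjusted p among the 72 genes was 0.9999. An unadjusted p under 0.05 was reached by 0 of the 72 genes and by 112 features, or 1.88%. With ordinary statistics for each gene it was reached by 2 of the 72 (MRPS28 and MRPL17) and by 147 features, or 2.47%. The share among the 72 genes was thus near that of all features, and again none passed the adjustment.

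The shift was seen on arrays 2 and 4 and not on the other pair. The median of the 72 genes was 0.06 on array 1, -0.26 on array 2, 0.0017 on array 3 and -0.34 on array 4. Negative turned values were held by 34, 46, 36 and 54 of the 72 genes on arrays 1 to 4. These are 47.2%, 63.9%, 50% and 75%, against 48.3%, 54.2%, 50.9% and 48.1% of all features. The 4 medians averaged -0.13 ± 0.19, so their spread was larger than their mean. The median of means was -0.05 without array 4, -0.19 without array 1, -0.26 on arrays 2 and 4 alone and 0.08 on arrays 1 and 3 alone. Arrays 2 and 4 are those with CadA in Cy3, so dye orientation moved with the result, and its part was not tested.

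**Figure D1:**
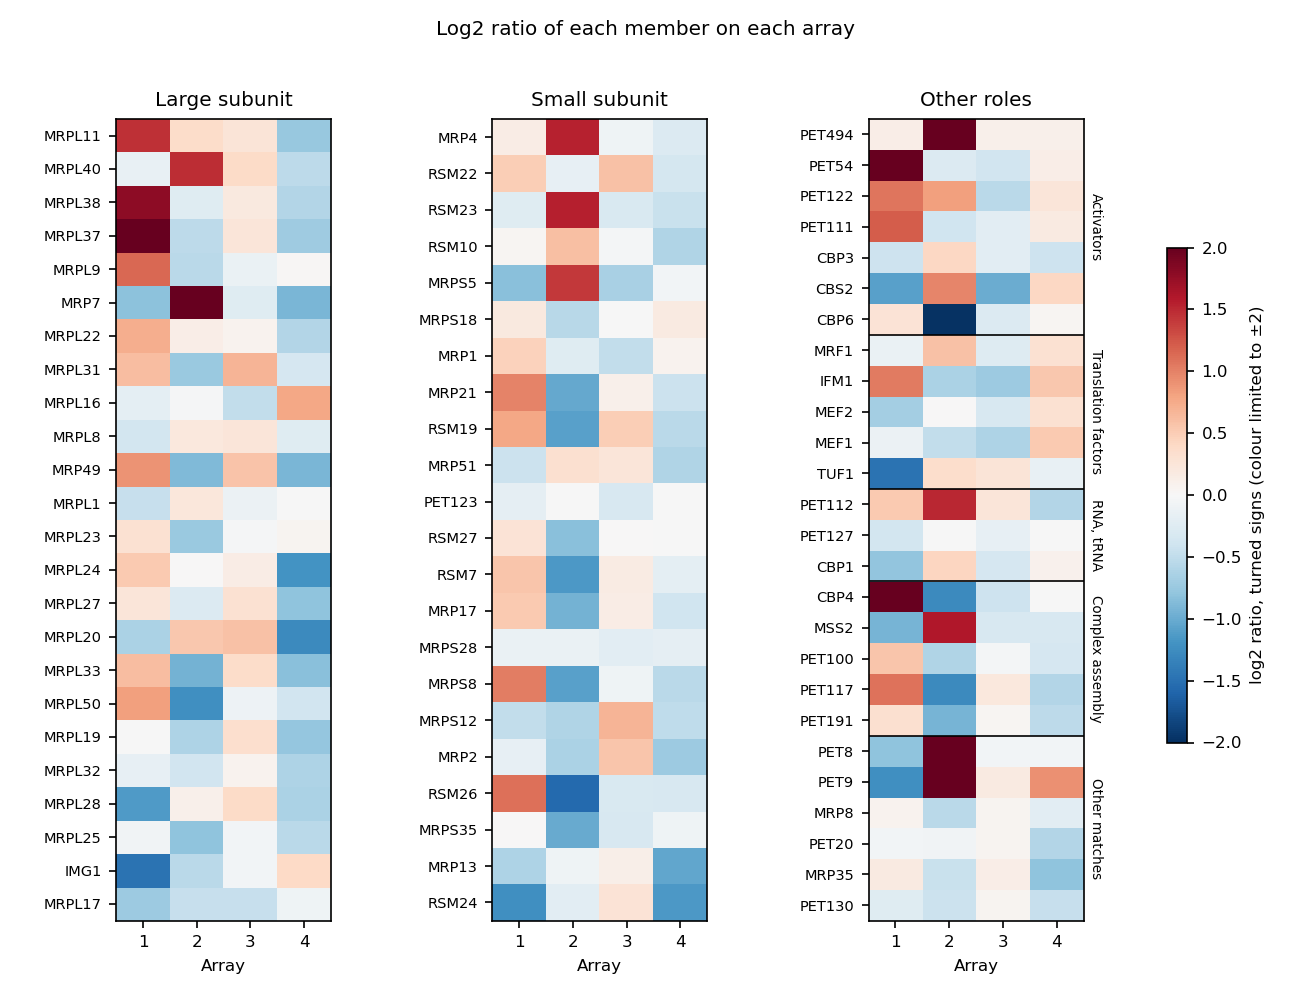
Log2 ratio in turned signs of each of the 72 genes (rows, grouped by role and ordered by mean) on each of the 4 arrays (columns), with red for values on the side of KAR2, blue for the opposite side and colour limited to ±2. Blue prevails for both subunits on array 4, where 20 of 24 large and 20 of 22 small subunit genes were negative, and few rows keep 1 colour across the arrays.

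The large and the small subunit did not differ by more than the spread between arrays. The median of the 24 large subunit genes was 0.12, -0.33, 0.17 and -0.59 on arrays 1 to 4. For the 22 small subunit genes it was 0.09, -0.40, 0.0017 and -0.37. The large minus small difference was therefore 0.02, 0.07, 0.17 and -0.22, with a mean of 0.01 ± 0.17. The means over arrays were negative for 15 of 24 large subunit genes (62.5%) and for 19 of 22 small subunit genes (86.4%). Their medians of means were -0.10 and -0.13. Without array 4 the large subunit median was 0.06, and that of the small subunit -0.09. On array 4 the negative genes were 83.3% of the large and 90.9% of the small subunit.

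**Figure D2:**
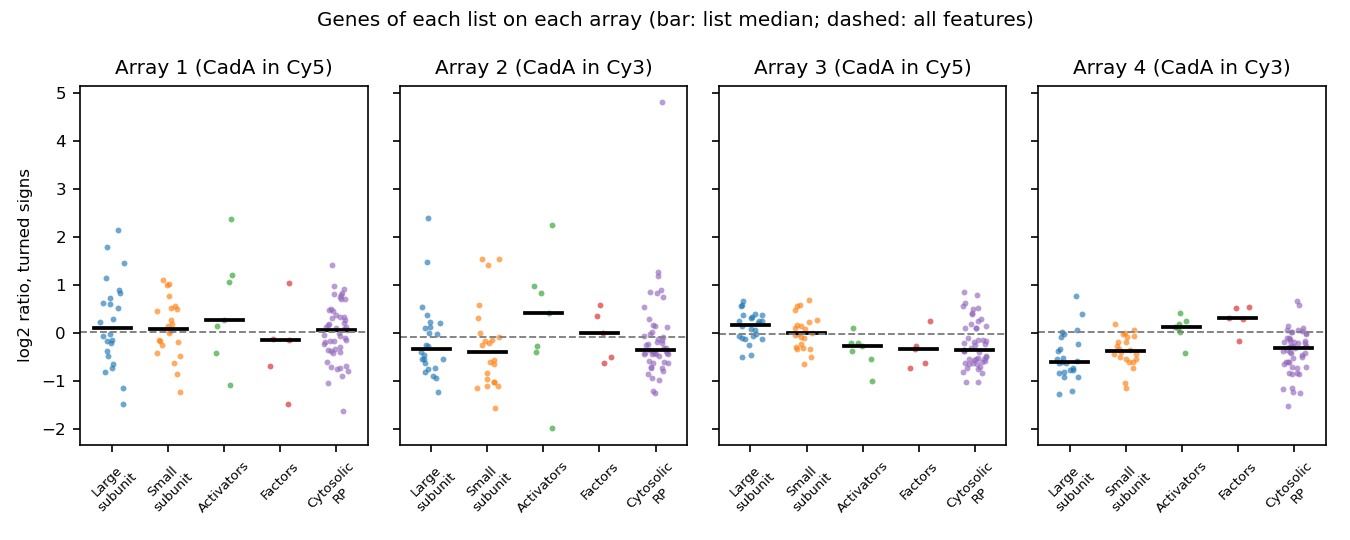
Log2 ratio in turned signs of the genes of 5 lists on each array, where every point is a gene, black bars are list medians and the dashed line is the median of all features; Cytosolic RP stands for cytosolic ribosomal protein genes. On array 4 the bars of both mitochondrial subunits and of the cytosolic ribosomal proteins lie below the dashed line, while those of the activators and translation factors lie above it.

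Large subunit genes with the lowest means differed in how far their arrays agreed. MRPL17, a protein of the large subunit, read -0.72, -0.46, -0.46 and -0.09 on arrays 1 to 4 and averaged -0.43 ± 0.26. MRPL25 read -0.07, -0.80, -0.05 and -0.54, with a mean of -0.36 ± 0.37. These were the only large subunit genes that were negative on all 4 arrays. IMG1, a counterpart of a bacterial large subunit protein that is needed for the integrity of mitochondrial DNA, read -1.48, -0.53, -0.06 and 0.40 and averaged -0.42 ± 0.80. Its mean was -0.06 without array 1. MRPL28 read -1.14, 0.10, 0.38 and -0.63, giving -0.32 ± 0.69, and lay on both sides. MRPL32 read -0.17, -0.38, 0.07 and -0.62 (mean -0.28 ± 0.29), negative on 3 arrays. MRPL19 read -0.01, -0.62, 0.33 and -0.77 (mean -0.27 ± 0.52), also negative on 3 arrays. In all 6 genes the difference from 0 failed the adjustment.

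The highest means of the large subunit each had 1 array well above the others. MRPL11 read 1.46, 0.37, 0.26 and -0.76 on arrays 1 to 4 and averaged 0.33 ± 0.91, or -0.04 without array 1. MRPL38, a counterpart of a universal ribosomal protein, read 1.79, -0.24, 0.20 and -0.59 (mean 0.29 ± 1.05). MRPL37 read 2.15, -0.53, 0.25 and -0.72 (mean 0.29 ± 1.31). Both were high on array 1 alone and averaged -0.21 and -0.33 without it. MRPL40 read -0.15, 1.48, 0.39 and -0.52 and averaged 0.30 ± 0.87, or -0.09 without array 2. MRPL9 read 1.15, -0.54, -0.13 and 0.03 (mean 0.13 ± 0.72), or -0.21 without array 1. MRP7, which takes the place of bacterial L27 near the peptidyl transferase centre, read -0.81, 2.40, -0.25 and -0.92 and averaged 0.10 ± 1.56. Without array 2 its mean was -0.66. Every one of these 6 means changed sign when its highest array was left out. This is no test, since the genes were picked for high means and leaving out the highest value must lower a mean. MRPL11 was positive on 3 arrays and averaged 0.70 without array 4.

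Among small subunit genes the lowest means were those of RSM24, MRP13, MRPS35 and RSM26, all proteins of the small subunit. RSM24 read -1.23, -0.21, 0.27 and -1.15 on arrays 1 to 4 and had the lowest mean of all 72 genes at -0.58 ± 0.73. MRP13 read -0.62, -0.09, 0.11 and -1.04 (mean -0.41 ± 0.52). Both were negative on 3 arrays and lowest on arrays 1 and 4. MRPS35 read 0.00069, -1.01, -0.32 and -0.08 (mean -0.35 ± 0.46), or -0.13 without array 2. RSM26 read 1.09, -1.56, -0.31 and -0.32 (mean -0.28 ± 1.08), with a mean of 0.15 without array 2. In these last genes array 2 was the lowest.

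MRPS28 had the tightest values of the 72 genes before the centring of print blocks described further on. This counterpart of a universal protein of the small subunit read -0.14, -0.13, -0.22 and -0.18 on arrays 1 to 4, which gave -0.17 ± 0.04. PET123, another small subunit protein, read -0.18, -0.0012, -0.32 and -0.0093 (mean -0.13 ± 0.15). Both were negative on all 4 arrays, but limma's adjusted p was 0.9999 for each. In the whole list, 5 of 72 genes (6.94%) were negative on all 4 arrays, against 3.58% of all features. They were MRPL17, MRPL25, MRPS28, PET123 and PET127. A positive value on all 4 arrays was held by 1 of 72 genes (1.39%), PET494, against 3.4% of all features.

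High means were few in the small subunit, since 3 of 22 were above 0. MRP4 read 0.14, 1.54, -0.09 and -0.27 on arrays 1 to 4 (mean 0.33 ± 0.83). RSM23, a GTP-binding protein of the small subunit, read -0.25, 1.55, -0.30 and -0.44 (mean 0.14 ± 0.94). In both, array 2 stood above the others, and without it the means were -0.07 and -0.33. RSM22, which resembles methyltransferases, read 0.50, -0.16, 0.58 and -0.35 (mean 0.14 ± 0.46), or -0.0040 without array 3. RSM10 read 0.04, 0.59, -0.03 and -0.61 (mean -0.00072 ± 0.49), with 2 arrays on each side. MRPS12, a counterpart of the decoding-centre protein of bacteria, read -0.49, -0.61, 0.68 and -0.51 and averaged -0.23 ± 0.61, or -0.53 without array 3.

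Of the 7 measured activators, 4 had a positive mean, and their median of means was 0.20. The activators of COX3 lay at the top of the list. PET494 read 0.14, 2.25, 0.11 and 0.11 on arrays 1 to 4 (mean 0.65 ± 1.07), and 0.12 without array 2. PET54 read 2.37, -0.27, -0.38 and 0.13 (mean 0.46 ± 1.29), and -0.17 without array 1. PET122 read 1.07, 0.83, -0.54 and 0.24 (mean 0.40 ± 0.71). PET494 was thus highest on array 2 and the other two on array 1, and none of them passed the test.

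The activators of other messages lay on either side of 0. PET111, for COX2, read 1.21, -0.40, -0.21 and 0.19 (mean 0.20 ± 0.72), and -0.14 without array 1. CBS2, for COB, read -1.08, 0.98, -0.99 and 0.41 (mean -0.17 ± 1.03). Its turned sign followed the dye orientation on every array. CBP3 and CBP6 form a complex at the ribosome that is needed for cytochrome b. CBP3 read -0.42, 0.41, -0.22 and -0.42 (mean -0.16 ± 0.39). CBP6 read 0.28, -1.98, -0.27 and 0.03 (mean -0.48 ± 1.02), and 0.01 without array 2. The partners CBP3 and CBP6 had opposite signs on arrays 1, 2 and 4.

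The activator median per array was 0.28, 0.41, -0.27 and 0.13. Set against the 46 ribosomal protein genes, the difference of medians was 0.18, 0.74, -0.36 and 0.60, with a mean of 0.29 ± 0.50. The difference was positive on 3 of 4 arrays and smaller than its spread. The activator median changed sign to -0.07 without array 1.

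The 5 translation factors had a median of means of -0.17 in turned signs, with 3 negative and 2 positive means. TUF1, the elongation factor that brings aminoacyl-tRNA, read -1.47, 0.36, 0.26 and -0.15 on arrays 1 to 4 (mean -0.25 ± 0.84), and 0.15 without array 1. MEF1, the translocation factor, read -0.11, -0.50, -0.62 and 0.52 (mean -0.18 ± 0.51). MEF2, its relative in ribosome recycling, read -0.68, 0.0099, -0.32 and 0.31 (mean -0.17 ± 0.43). Each of these had arrays on both sides. IFM1, the initiation factor, read 1.04, -0.63, -0.73 and 0.54 (mean 0.06 ± 0.88). MRF1, the release factor, read -0.13, 0.59, -0.26 and 0.30 (mean 0.12 ± 0.39). The signs of MEF2 and MRF1 followed the dye orientation on all 4 arrays.

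Genes of RNA and tRNA metabolism numbered 3. PET127, which acts in the processing of mitochondrial RNA ends, read -0.36, -0.01, -0.16 and -0.02 (mean -0.14 ± 0.17) and was negative throughout. CBP1, which stabilises COB messenger RNA, read -0.79, 0.43, -0.33 and 0.08 (mean -0.15 ± 0.53). PET112, a subunit of the amidotransferase that completes glutaminyl-tRNA, read 0.53, 1.51, 0.24 and -0.59 (mean 0.42 ± 0.87), and 0.06 without array 2.

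Of the 5 assembly genes, 3 had a negative mean, and all 5 were negative on array 4. PET191, PET117 and PET100, which take part in building cytochrome c oxidase, averaged -0.27 ± 0.56, -0.14 ± 1.02 and -0.11 ± 0.49. MSS2, needed for membrane insertion of Cox2, averaged 0.0053 ± 1.10, with 1.60 on array 2. CBP4, of bc1 complex assembly, averaged 0.27 ± 1.76, with 2.79 on array 1 and -1.27 on array 2. Its mean was -0.56 without array 1. These genes encode no ribosomal protein, and the median of their SDs over arrays was 1.02, against 0.71 for the large and 0.60 for the small subunit. It was also 1.02 for the activators, and 0.60 for all features.

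Among the remaining matches, PET8 had the highest mean of the 72 genes and PET9 the third highest, next to PET494. PET8 read -0.80, 4.61, -0.06 and -0.05 on arrays 1 to 4 (mean 0.93 ± 2.48), and PET9 read -1.23, 2.73, 0.18 and 0.91 (mean 0.65 ± 1.65). Without array 2 they averaged -0.30 and -0.05. The other 4 lay between -0.27 (PET130) and -0.16 (MRP8), with MRP35 at -0.23 and PET20 at -0.16. With the assembly genes and these matches left out, except MRP35, a ribosomal protein gene by its locus, 62 genes remained and their median of means was again -0.13.

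Most of the highest values on array 2 came from 2 groups of probes. The first field of a probe's identifier, read here as its print block, takes 48 values. The median of all probes of a block ran from -0.76 to 1.83 on array 2 and within -0.57 and 0.87 on the other arrays in deposited signs. Of the 10 member probes with the highest values on array 2, 8 lay in blocks 46 and 48, which hold 10 of the 78 member probes. The block medians there were 0.85 and 1.83. PET494, PET9, PET112, MRP4 and RSM23 lay in block 48, and PET8, MRP7 and MRPL40 in block 46. A high block median did not go with high values in every gene, since MRPL24 in block 47 (median 1.53) read 0.01 and MRPL20 in block 41 (median 1.33) read 0.54. After each block was centred on its median, PET494 read 0.43 on array 2 and averaged 0.17 ± 0.18. MRP4 then averaged -0.15 ± 0.21 and RSM23 -0.34 ± 0.12, so the means of both changed sign. PET8 kept 3.75 on array 2 and averaged 0.65 ± 2.12. MRPS28 then read -0.10, 0.13, -0.0098 and -0.39 and averaged -0.09 ± 0.22, so its values were no longer the tightest. Of the 5 genes negative on all 4 arrays before centring, only MRPL25 stayed so. MRPL17 read 0.30 on array 2, PET123 0.04 on array 3 and PET127 0.15 on array 2. The median of all 72 genes was -0.10 after centring, with 50 negative means, and by array it was 0.08, -0.26, -0.0076 and -0.34.

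Cytosolic ribosomal protein genes were the contrast. Nuclear genes encode the proteins of the cytosolic ribosome and nearly all of those of the mitochondrial one. The cytosolic ribosomes make the bulk of cellular protein. Of 49 measured cytosolic genes, 44 had a negative mean (89.8%) and the median of means was -0.21. RPS10A (-0.54 ± 0.20) and RPL22A (-0.51 ± 0.54) had the lowest means, and RPL33B (0.99 ± 2.56, -0.28 without array 2) and RPL11A (0.37 ± 0.93, 0.02 without array 1) the highest. The cytosolic medians were 0.06, -0.34, -0.35 and -0.31 on arrays 1 to 4. The 72 genes differed from them by -0.0042, 0.09, 0.35 and -0.03, with a mean of 0.10 ± 0.17, which is within the spread between arrays. For the 46 mitochondrial ribosomal proteins alone the difference was 0.03, 0.01, 0.43 and -0.16 (mean 0.08 ± 0.25).

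Before block centring the 2 ribosomes parted most on array 3. The cytosolic median there was -0.35, and 34 of 49 genes were negative (69.4%), whereas the mitochondrial medians were 0.17 for the large and 0.0017 for the small subunit. On array 4 the order turned, with -0.59 for the large subunit and -0.31 for the cytosolic genes. Among arrays 3 and 4, whose spread was about equal, the cytosolic genes had medians of 1 sign in turned values and of opposite sign as deposited (0.35 and -0.31). On arrays 1 and 2, also alike in spread, it was the reverse, with 0.06 and -0.34 turned and -0.06 and -0.34 as deposited. The mitochondrial large subunit had -0.17 and -0.59 as deposited, which is 1 sign. After block centring the cytosolic medians were -0.10, 0.02, -0.17 and -0.43, where the value of array 2 had been -0.34 before. Those of the 46 mitochondrial ribosomal proteins were then 0.12, -0.31, 0.03 and -0.47 in turned signs. The 2 ribosomes thus lay furthest apart on array 2 after centring, so the place of the gap depended on the print blocks.

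**Figure D3:**
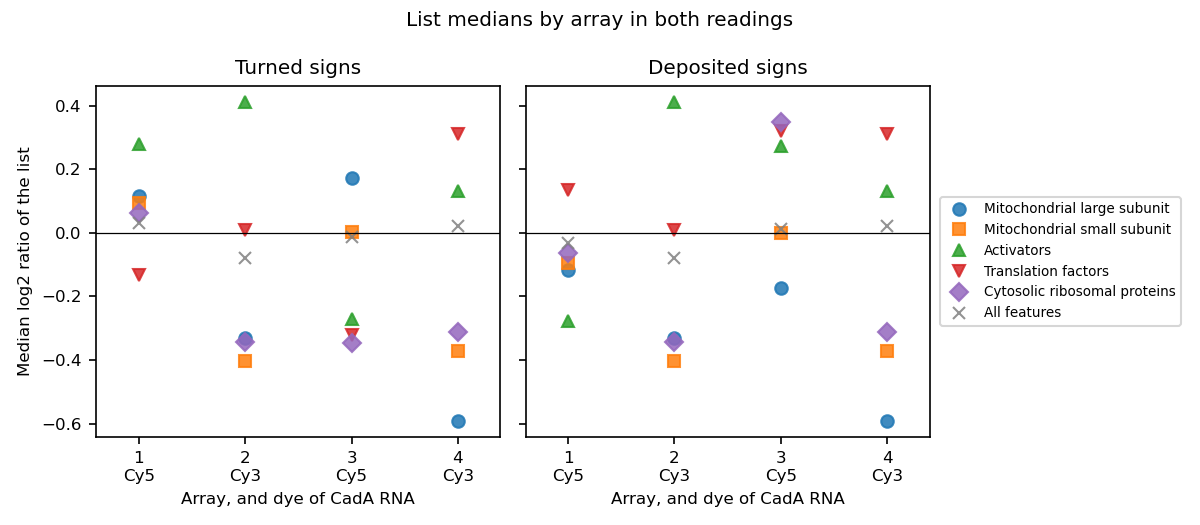
Median log2 ratio of 6 lists on arrays 1 to 4, with the dye of CadA RNA under each array number, in turned signs (left) and as deposited (right). The panels differ on arrays 1 and 3, where the sign is turned: on array 3 the cytosolic ribosomal proteins stand at -0.35 on the left and 0.35 on the right, and the mitochondrial large subunit at 0.17 and -0.17.

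Other genes of mitochondrial gene expression lay outside the symbol pattern. Of 13 listed mitochondrial aminoacyl-tRNA synthetases, which charge tRNA for this ribosome, 5 were measured. Their means were negative for 4 of 5, and the median of means was -0.03, with DIA4 lowest at -0.49 ± 0.56 and MST1 highest at 0.27 ± 0.27. MST1, for threonine, was positive on all 4 arrays. Of 26 listed factors 12 were measured, with a median of means of 0.01 and 6 on each side. They included NAM9, a small subunit protein, at 0.30 ± 0.75, or -0.06 without array 1. OXA1, the insertase for newly made membrane proteins, averaged 0.09 ± 0.14, and MBA1, a ribosome receptor of the inner membrane, -0.08 ± 0.31. None of these 17 genes passed the test.

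In the signs as deposited the arrays agreed more often, among the 72 genes as among all features. Limma again called 0 of 72 genes and 0 of 5946 features (0%), with a smallest adjusted p of 0.42 for both. An unadjusted p under 0.05 was reached by 695 features and 11 of the 72 genes. Lower values at that level were held by 8 of the 72 genes (11.1%), against 5.65% of all features, and higher values by 3 (4.17%), against 6.04%. A negative value on all 4 arrays was held by 16 of the 72 genes (22.2%), against 12.3% of all features, and a positive one by 4 (5.56%), against 12.4%. The median of means was -0.18, against -0.03 for all features. A negative mean was held by 45 of 72 genes (62.5%), against 53.5% of all features.

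Of the 8 genes with lower values, 7 were counted in the ribosomal subunits, as were 46 of the 72 genes. MRP35 is not among the 46. No difference between these shares was tested. MRP49, of the large subunit, read -0.90, -0.88, -0.57 and -0.91 as deposited on arrays 1 to 4 (mean -0.82 ± 0.16). RSM19, of the small subunit, read -0.77, -1.09, -0.49 and -0.53 (mean -0.72 ± 0.28). MRPL33 read -0.61, -0.94, -0.37 and -0.84 (mean -0.69 ± 0.25). Each lay below 0 on every array and at different depths. MRPL31 read -0.62, -0.74, -0.68 and -0.34 (mean -0.59 ± 0.18). MRPL37 read -2.15, -0.53, -0.25 and -0.72 (mean -0.91 ± 0.85). MRP21, of the small subunit, read -0.99, -1.02, -0.10 and -0.43 (mean -0.64 ± 0.45). In MRPL37 array 1 stood lowest, and in MRP21 array 3 was nearest to 0. PET117 read -1.08, -1.28, -0.21 and -0.58 (mean -0.79 ± 0.49), again negative throughout. MRPS8 read -1.02, -1.09, 0.08 and -0.54 (mean -0.64 ± 0.54), with array 3 above 0. In turned signs the means of these 8 genes lay between -0.20 and 0.29.

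A further 9 genes were negative as deposited on arrays 1 to 4 without an unadjusted p under 0.05. MRPL38 read -1.79, -0.24, -0.20 and -0.59 (mean -0.71 ± 0.74). These are averages of 2 probes, of which 1 lay above 0 on array 3. MRPL27, also of the large subunit, read -0.24, -0.28, -0.31 and -0.80 (mean -0.41 ± 0.26). MRP35 read -0.18, -0.44, -0.13 and -0.80 (mean -0.39 ± 0.31). In MRPL27 and MRP35 array 4 was the lowest. Of the small subunit, RSM7 read -0.56, -1.14, -0.16 and -0.19 (mean -0.51 ± 0.46), also with 1 of its 2 probes above 0 on array 3. MRP17 read -0.53, -0.95, -0.15 and -0.39 (mean -0.50 ± 0.33). RSM27 read -0.28, -0.84, -0.01 and -0.0056 (mean -0.28 ± 0.39). These were lowest on array 2, whereas RSM22 was lowest on array 3. RSM22 read -0.50, -0.16, -0.58 and -0.35 (mean -0.40 ± 0.18). PET191 read -0.32, -0.93, -0.04 and -0.52 (mean -0.45 ± 0.37). MRP8 read -0.07, -0.53, -0.05 and -0.21 (mean -0.22 ± 0.22). In all, 16 genes were negative on all 4 arrays, and they lay in several roles.

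The 3 genes with higher values as deposited had other roles or ranges. CBS2 read 1.08, 0.98, 0.99 and 0.41 (mean 0.87 ± 0.31). MRPS5, a small subunit protein, read 0.84, 1.42, 0.65 and -0.05 (mean 0.71 ± 0.61). PET9 read 1.23, 2.73, -0.18 and 0.91 (mean 1.17 ± 1.20). Of these, CBS2 lay above 0 on all 4 arrays, together with CBP1, MEF2 and MRF1. The factors had a median of means of 0.32 as deposited, and their list median exceeded that of the 46 ribosomal proteins on all 4 arrays, by 0.23, 0.34, 0.41 and 0.78 (mean 0.44 ± 0.24). The activators exceeded them by -0.18, 0.74, 0.36 and 0.60 (mean 0.38 ± 0.41). Large minus small subunit gave -0.02, 0.07, -0.17 and -0.22 in these signs, with a mean of -0.09 ± 0.13.

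Coding length moved with the deposited values, and the roles differ in length. The R64 table of annotated genes gives a median length of 531 bp for the large subunit, 831 bp for the small subunit, 1008 bp for the activators and 2031 bp for the factors. Across the 72 genes the deposited mean correlated with log2 length at r = 0.57 (Spearman rho 0.67), and across 3098 named genes at r = 0.29 (rho 0.32). For the 49 cytosolic ribosomal protein genes r was 0.42 (rho 0.55). Genes are not independent replicates, and all share the same 4 arrays. On single arrays r across the 72 genes was 0.29, 0.44, 0.46 and 0.41 in deposited signs. With print blocks centred it was 0.52 for the deposited means. In turned signs r was 0.23 across the 72 genes and 0.10 across the named genes, and after block centring 0.11 and 0.12.

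Split at 771 bp, the median length of the 72 genes, the 36 shorter genes had a median deposited mean of -0.42 and the 36 longer ones 0.14. Of the shorter genes 5 had a positive mean, and of the longer ones 22. The 874 shorter named genes had a median of -0.21, and the 2224 longer ones 0.06. In turned signs the medians were -0.15 and -0.07 for the 72 genes and -0.05 and 0.000056 for the named genes. Turned medians of the shorter members were 0.29, -0.61, 0.11 and -0.53 on arrays 1 to 4, and those of the longer members -0.21, 0.07, -0.21 and -0.08. The part of length in the differences between roles was not tested.

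**Figure D4:**
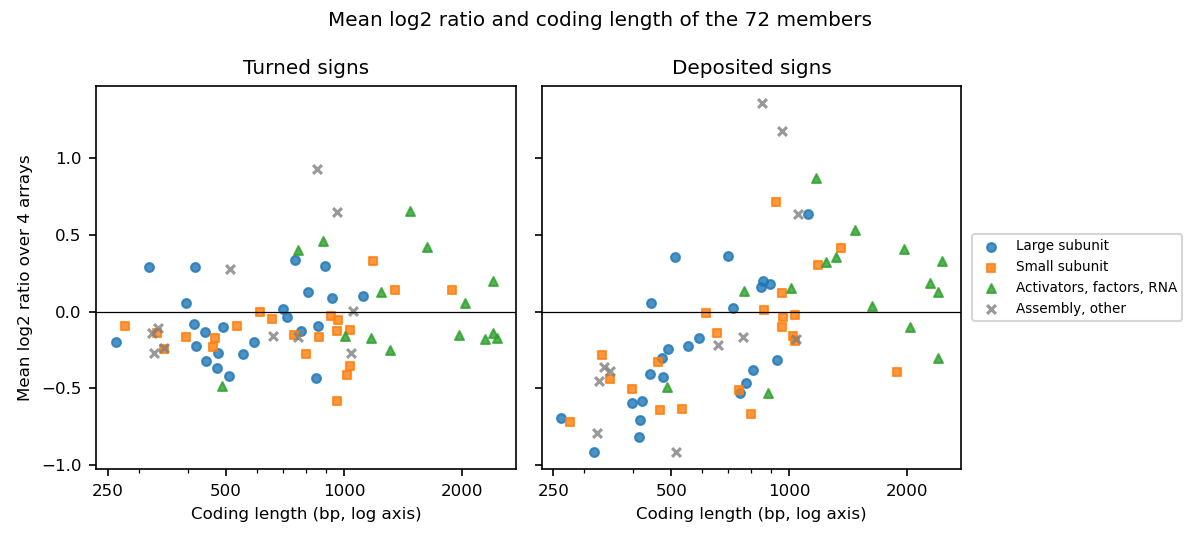
Mean log2 ratio over 4 arrays of the 72 genes against coding length (log axis, bp), in turned signs (left) and as deposited (right), with symbols for the roles. On the right the short genes lie mostly below 0 (31 of the 36 shorter genes) and the correlation with log2 length is 0.57, while on the left it is 0.23.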

How the data were processed

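Each of 4 two-colour arrays gave 1 log ratio per probe for the pair of strains. The values deposited by the authors were read as log2 ratios, and the submitters' processing notes name limma 3.2.1. The log base, numerator, background correction and normalization are not given in the sources at hand. Array medians lay between -0.09 and 0.02. All 4 columns were used. Precision is limited by the number of arrays, by the wider spread of array 1 and array 2, and by print blocks, which held between 10.8% and 38.5% of an array's variance.

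Of 6216 probes, 54 lacked a value on at least 1 array, 3344 had 1 symbol, 387 several and 2485 none in the platform annotation. Symbols were updated by gene identifier through the R64 table (3343 of 3344 matched), and probes of a gene were averaged. A probe without a single symbol stayed as an unnamed feature.

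Pairs of arrays of opposite dye orientation correlated between 0.0090 and 0.35 across probes in deposited signs, and pairs of 1 orientation at 0.18 and -0.02. These values do not settle the direction, so both readings are given. Each feature's mean was tested against 0 with lmFit and eBayes of limma 3.58.1 in R 4.3.3. This test held no dye term, so in turned signs a constant dye effect counts as spread between arrays. Two-sided p-values were adjusted over all 5946 features by Benjamini-Hochberg, with a threshold of 0.05. The procedure was checked on simulated data. Most shifts of 1 and of 2 log2 units went uncalled there, so an absence of calls does not show an absence of differences. A few features without a shift were called. Lists are described by medians and counts without a test.

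The genes and lists were chosen with earlier results of these data known. Values on all arrays are given for activators, factors, the extremes of each subunit (6 and 6, or 4 and 4), genes with 1 sign on all arrays, those with an unadjusted p under 0.05, and those with an outlying array. The split by length and the look at single print blocks were chosen after seeing the data. Alternatives were other signs, subsets of arrays, block centring, scaling, array weights and the first probe of a gene. Ordinary statistics and a fit with strain and dye coefficients were also run.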

Additional observations from a re-analysis of the deposited data

Results flagged for a closer look

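Of the 72 genes, 4 (5.56%) had 1 array whose turned value lay apart from the other 3 by more than Dixon's 95% critical gap. Chance flags about 1 in 20 groups of this size where all values share 1 spread, but arrays 1 and 2 spread more widely than arrays 3 and 4. The share flagged over all features was not computed. Of the 4 genes, 3 were flagged on array 2, the array with the widest spread. PET8 read 4.61 on array 2 and between -0.80 and -0.05 on the others. PET494 read 2.25 there and between 0.11 and 0.14 elsewhere. RSM23 read 1.55 and elsewhere between -0.44 and -0.25. The print blocks of these 3 probes had medians of 0.85, 1.83 and 1.83 on that array. MRPS12 read 0.68 on array 3, where its block median was 0.13, and between -0.61 and -0.49 on the others. The part of the blocks in these values was not tested.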

How the results depend on the processing

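No member was called under any of the alternatives run. Over all features, limma called 0 in turned signs, 1 without array 1, 10 on arrays 3 and 4 alone and 4 with array weights, and in the other settings 0. As deposited it called 0 in each of 7 settings, which were added after the data were seen. List values stayed within 1 SD over arrays of the value given, except these: the median of the 72 genes was 0.078 on arrays 1 and 3 alone, that of the small subunit -0.48 on arrays 2 and 4 alone, that of the activators -0.125 on arrays 3 and 4 alone. In deposited signs the difference of large minus small subunit (median of means) went from 0.04 to -0.14, and that of the 72 genes minus the cytosolic genes from 0.08 to -0.11. The causes were not tested. Leaving out 1 array at a time gave -0.19 to -0.05 for the 72 genes, -0.21 to 0.06 for the large subunit, -0.25 to -0.09 for the small subunit, -0.07 to 0.33 for the activators, -0.32 to -0.17 for the cytosolic genes, -0.00028 to 0.15 for large minus small and 0.03 to 0.17 for members minus cytosolic genes. Of 56 genes followed singly, 32 changed the sign of their mean without 1 array, 23 in deposited signs and 6 after block centring. Dim spots could not be left out, since signal over background was not part of the values used here.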

Other observations

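For 6 of the 72 genes 2 probes were measured. Their turned means had the same sign for 4 genes. MRPL38 had probe means of 0.67 and -0.09, and MRPL9 of -0.40 and 0.66. In deposited signs MRPS35 (0.04 and -0.42) and PET130 (-0.39 and 0.03) were the pairs of unlike sign. RSM7 was alike in both readings, at -0.26 and -0.05 turned and -0.49 and -0.54 as deposited. The distance between probes of 1 gene was thus as large as many of the means of the subunits.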
